A study of Mus musculus with 18 samples.

Results

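The genes described here are 43 genes of macrophages and monocytes, read in whole heart tissue of mice. They were set by name from known markers, with earlier results of these data known. Counts over the set are therefore not independent of these data. They make up 43 of the 34150 genes in the deposited tables. All 43 are also among the 13710 genes whose mean over all libraries reached 0.5 FPKM, so every one entered the tests. FPKM means fragments per kilobase of exon, scaled to the mapped reads of the library. By known role, 14 are general macrophage genes, 10 mark macrophages that live in the tissue, 3 belong to the uptake of dying cells, 6 are Fc receptors, their adaptors and a related receptor, 3 mark recruited monocytes, 3 mark lipid-laden macrophages and 4 are shared by leukocytes. The study sequenced ribosomal RNA-depleted total RNA from the hearts of 6 HXP treated mice, 6 mice with myocardial infarction (MI) and 6 control mice, and by its title HXP was given in the acute MI model. The sources used here do not give what HXP stands for, its dose, when mice were infarcted, treated or sampled, the part of the heart taken, or the strain, sex and age. Whether control mice had sham surgery and whether every HXP mouse had an infarct is not stated either. How the libraries of a group map to animals, beyond a group size of 6, is not stated, and p-values here measure only the variation among these samples, which may be technical in part.

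The adult mouse heart holds macrophages seeded before birth that renew themselves in place and carry markers such as Lyve1, Timd4, Folr2 and Cd163. After an infarct, blood monocytes enter the damaged muscle, become macrophages, take up dying cells and debris, and many of the resident cells in the infarct are lost. Macrophages that take up much lipid switch on Trem2 and Gpnmb, in several tissues. In all of these cells the transcription factor PU.1, encoded by Spi1, binds purine-rich sites near the genes of the lineage.

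To show the kind of sequence in which such sites lie, the 100 bases before the RefSeq start of 6 of the genes follow, 5′ to 3′ on the strand of the gene, from GRCm38.p6. Capitals mark GAGGAA, the core letters of a PU.1-type site, or its reverse complement TTCCTC. The first 4 genes hold it in this window and rose in MI hearts, Mpeg1 rose and does not hold it there, and Cd163 did not pass the test and does not hold it there.
Fcgr1 (chr3:96293970-96294069, minus strand): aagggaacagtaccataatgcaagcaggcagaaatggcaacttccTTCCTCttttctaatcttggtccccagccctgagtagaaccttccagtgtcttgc
Trem2 (chr17:48346301-48346400, plus strand): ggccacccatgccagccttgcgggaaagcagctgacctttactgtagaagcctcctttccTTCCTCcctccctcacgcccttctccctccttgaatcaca
Cd53 (chr3:106790150-106790249, minus strand): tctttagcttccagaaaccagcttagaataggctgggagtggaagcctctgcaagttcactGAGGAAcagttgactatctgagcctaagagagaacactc
Mrc1 (chr2:14229314-14229413, plus strand): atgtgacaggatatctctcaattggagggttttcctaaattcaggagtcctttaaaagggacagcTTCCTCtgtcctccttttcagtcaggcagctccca
Mpeg1 (chr19:12460670-12460769, plus strand): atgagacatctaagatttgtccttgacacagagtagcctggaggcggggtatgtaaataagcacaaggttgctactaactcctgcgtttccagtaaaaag
Cd163 (chr6:124304551-124304650, plus strand): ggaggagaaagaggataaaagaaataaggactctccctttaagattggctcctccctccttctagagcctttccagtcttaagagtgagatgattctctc
Over the 250 bases before the start, GAGGAA was present on either strand in 16 of the 32 genes of the set with an entry in the RefSeq promoter table (50%), against 25.9% of all 26994 genes with an entry. The longer form GAGGAAGT stood in 1 of the 32 genes (Ly6c2) and in 2.79% of all genes, and contains the shorter one. The letters TATAAA on the strand of the gene were present before 1 of the 32 genes (Laptm5) and before 8.94% of all genes. A match is a run of letters and not a shown binding site. Over the 250 bases F13a1 held GAGGAA and did not pass in MI hearts, while Lyz2, Gas6, Lgals3 and Gpnmb rose without it. A link between these letters and the rise was not tested.

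Depth, recovered from the whole-read steps in the values, was 75.7 to 81 M reads per library, and each gene of the set was read from at least 18 reads in any library. Heart muscle markers were high in all 18 libraries, with 8 markers summing to 6500 to 12872 FPKM in HXP hearts, 6932 to 11054 FPKM in MI hearts and 10387 to 12868 FPKM in control hearts. MI 5 and MI 4 stood apart in markers of other tissues. MI 5 held 1182 FPKM summed over 8 lung epithelial markers, among them 970.3 FPKM of Sftpc, which encodes surfactant protein C, and the other 17 libraries held 0.0771 to 0.699 FPKM of the same 8. MI 5 also held 266 FPKM of Chil3, which alveolar macrophages express, against at most 1.09 FPKM elsewhere. MI 4 held 83.3 FPKM of 9 skeletal muscle markers, against 0.866 to 12.3 FPKM in the other libraries. Lung tissue holds macrophages of its own, and counts without MI 5 are given beside the counts with it. The library numbers in the deposited tables were cut into 3 runs, a new run starting where the gap between numbers was over 50. These runs are inferred from the numbers alone and may not be sequencing batches. No run is shared evenly: the first holds 1 MI and 2 control libraries, the next 4 HXP and 1 control library, and the last 2 HXP, 5 MI and 3 control libraries.

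**Figure D1:**
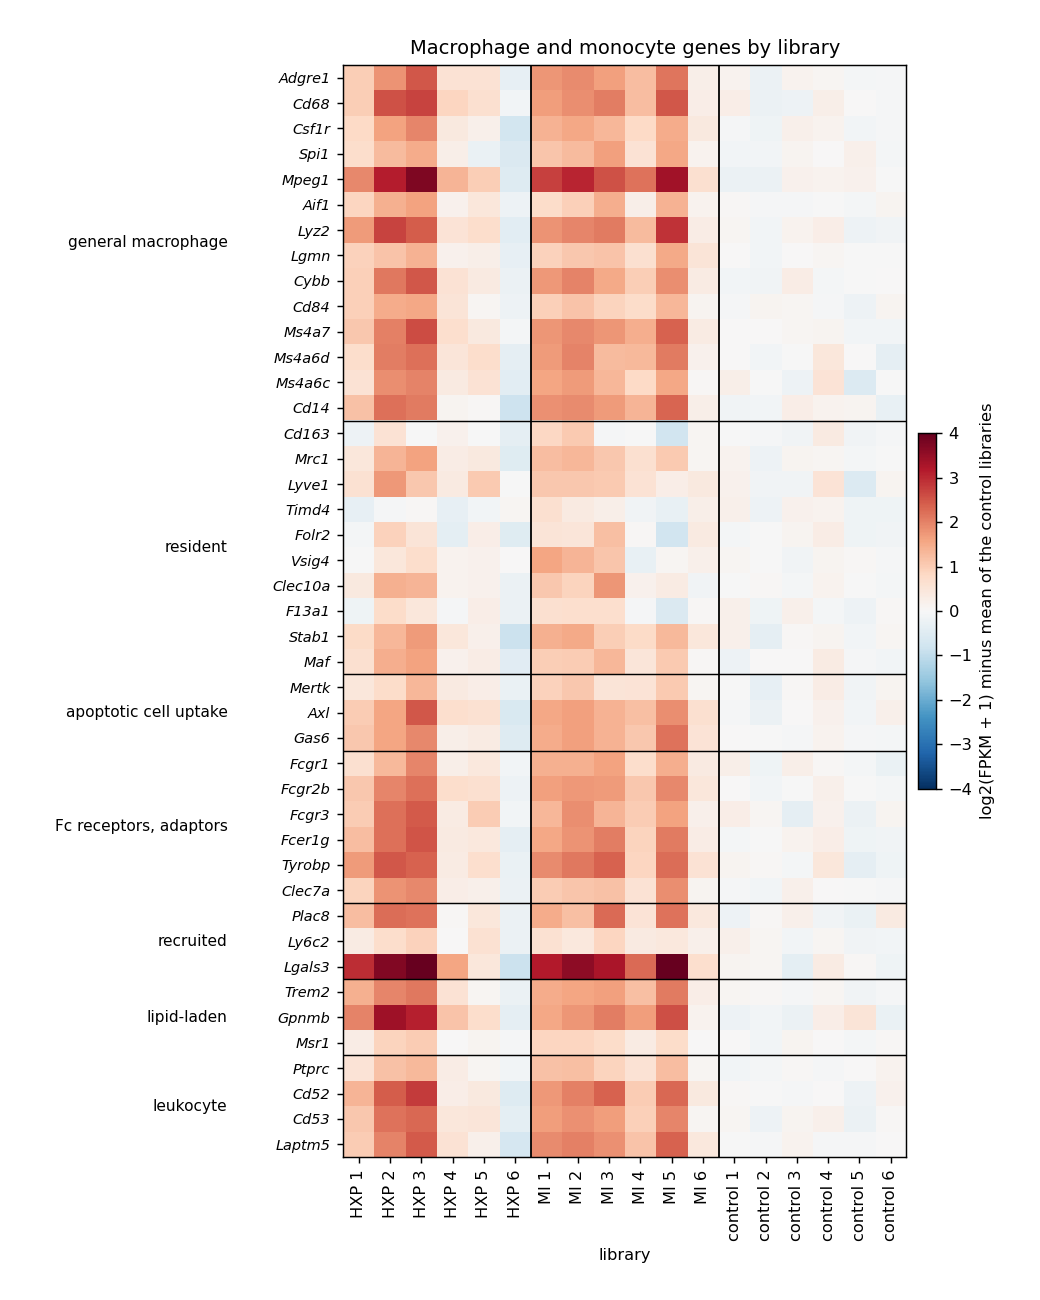
Level of each of the 43 genes (rows, grouped by role) in each of the 18 libraries (columns) as log2(FPKM + 1) minus the mean of the 6 control libraries. Red is above and blue below the control mean. HXP 2, HXP 3 and MI 1 to MI 5 are red in nearly every row, HXP 6 is pale or blue in nearly every row, and the rows of Cd163, Timd4, Folr2 and F13a1 stay pale in most libraries.

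MI was first set against control. Macrophage and monocyte genes were higher in MI hearts almost throughout: 38 of the 43 rose (88.4%) and 0 fell, calls being made in one limma fit over all genes at an adjusted p (Benjamini-Hochberg) under 0.05. Among all 13710 genes 40.1% rose and 3.21% fell, so a large share of the transcriptome moved with them. The median log2 fold change of the set was 1.17, beside 0.27 over all genes, and all 43 fold changes were above 0, as were 81.0% over all genes. In 22 of the 43 every MI library lay above every control library, beside 27.9% of all genes. The 5 genes that did not pass were all resident markers: Cd163, Timd4, Folr2, Clec10a and F13a1. In whole tissue, the number of cells of a type and the RNA per cell cannot be told apart. Without MI 5, 26 of the 43 rose, beside 18.4% of all genes. With the last run of libraries alone 0 of the 43 passed, beside 0.540% of all genes higher. All 43 were above 0 in that fit, with a median log2 fold change of 1.05 beside 0.21 over all genes.

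All 14 general macrophage genes rose in MI hearts, by log2 fold changes of 0.82 (Aif1) to 2.42 (Mpeg1), and for 9 of the 14 every MI library lay above every control library. Adgre1 encodes F4/80, the surface antigen that defines mouse macrophages (ENSMUSG00000004730, GRCm38 chromosome 17, 57358691 to 57483527). Its level was 2.49 to 23.3 FPKM (median 6.58) in HXP hearts, 4.10 to 18.4 FPKM (median 13.2) in MI hearts and 2.73 to 3.82 FPKM (median 3.41) in control hearts. The 6 MI libraries all lay above the 6 control libraries, MI 6 only just, while HXP libraries spanned both groups. Adgre1 averaged 9.79 ± 7.72 FPKM in HXP hearts, 12.3 ± 5.0 FPKM in MI hearts and 3.38 ± 0.431 FPKM in control hearts (SD, n = 6 each), and in MI against control it rose by 1.49 log2 units (SE 0.38, limma adjusted p = 0.0146). Csf1r encodes the receptor for the growth factors CSF1 and IL-34, on which macrophages depend (ENSMUSG00000024621, GRCm38 chromosome 18, 61100598 to 61132149). It stood at 5.18 to 38.3 FPKM (median 14.6) in HXP hearts, 12.4 to 29.1 FPKM (median 25.2) in MI hearts and 8.11 to 10.9 FPKM (median 8.92) in control hearts, again with no overlap of MI and control, and rose by 1.16 log2 units (SE 0.34, limma adjusted p = 0.0182). Of its 5774 bases of merged exon, 873 overlap Hmgxb3 on the other strand, and the sources used here do not state whether reads were counted by strand.

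Cd68, a glycoprotein of the lysosome, stood at 4.18 to 35.5 FPKM (median 9.47) in HXP hearts, 5.70 to 30.4 FPKM (median 18) in MI hearts and 3.71 to 5.66 FPKM (median 4.47) in control hearts. Its lowest MI library (MI 6, 5.70 FPKM) lay just above its highest control library (control 1, 5.66 FPKM), and it rose by 1.60 log2 units (SE 0.43, limma adjusted p = 0.0151). Lyz2, which encodes the lysozyme of macrophages and granulocytes, was the most abundant of the 43 at 68.3 to 604 FPKM (median 223) in HXP hearts, 111 to 688 FPKM (median 337) in MI hearts and 78.2 to 108 FPKM (median 90.3) in control hearts. It rose by 1.72 log2 units (SE 0.47, limma adjusted p = 0.0155), was highest in MI 5 at 688 FPKM, and shares sequence with Lyz1, so that reads could be split between them. Without MI 5 its log2 fold change was 1.48 (limma adjusted p = 0.0438). Ms4a7, a membrane protein of macrophages, stood at 0.348 to 7.61 FPKM (median 1.61) in HXP hearts, 0.760 to 6.18 FPKM (median 3.82) in MI hearts and 0.293 to 0.533 FPKM (median 0.421) in control hearts, and rose by 1.60 log2 units (SE 0.38, limma adjusted p = 0.0143) with no overlap.

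Mpeg1, which encodes the pore-forming protein perforin-2 of phagocytes, had the highest fold change of the general genes. Its level was 1.73 to 50.2 FPKM (median 11.3) in HXP hearts, 5.06 to 38.6 FPKM (median 23) in MI hearts and 2.25 to 3.39 FPKM (median 3.03) in control hearts, so that even MI 6 (5.06 FPKM) lay above every control, and it rose by 2.42 log2 units (SE 0.56, limma adjusted p = 0.0139). With Fcgr2b it had the smallest adjusted p of the set. Cd14, the co-receptor for lipopolysaccharide, rose by 1.56 log2 units (limma adjusted p = 0.0167). Cybb, the catalytic subunit of the phagocyte NADPH oxidase, rose by 1.40 log2 units (limma adjusted p = 0.0158), and Lgmn, a lysosomal protease, by 0.97 (limma adjusted p = 0.0146). Spi1 itself rose by 1.04 log2 units (limma adjusted p = 0.0206), and this call was lost without MI 5 (adjusted p = 0.0534). The same held for Cd84 (log2 fold change 0.86, adjusted p = 0.0554 without MI 5) and for Ms4a6c (1.17, 0.0552 without MI 5), whose exons overlap another gene and whose reads may be shared with Ms4a6b and Ms4a6d. Ms4a6d rose by 1.42 log2 units (limma adjusted p = 0.0151). Aif1, the actin-binding protein Iba1, rose by 0.82 log2 units (limma adjusted p = 0.0296) and lost the call without any 1 of MI 2, MI 3, MI 5 and control 2.

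**Figure D2:**
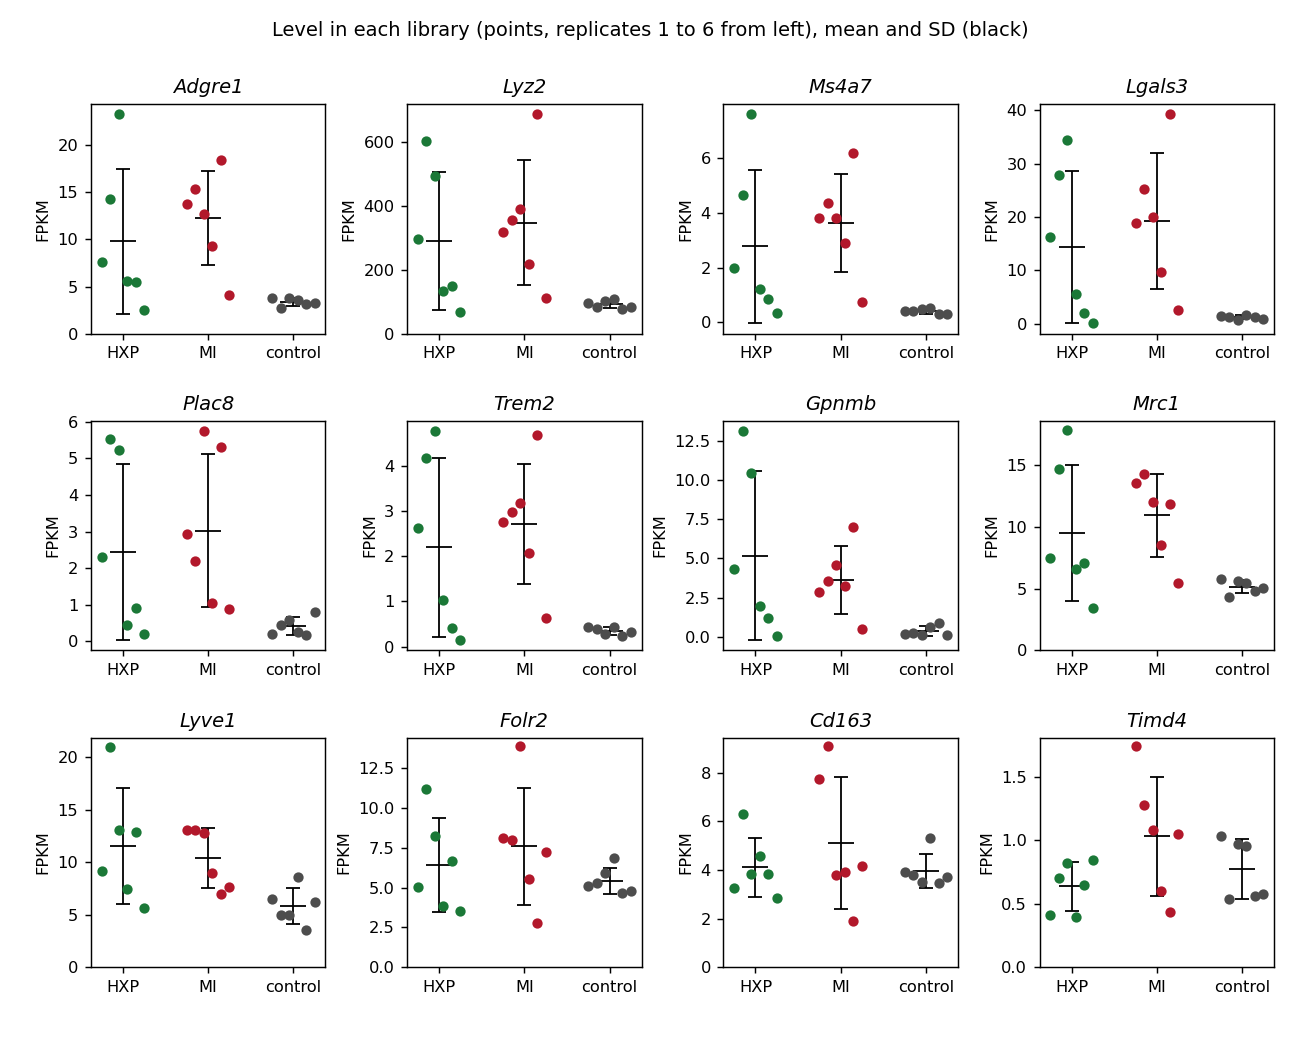
FPKM of 12 of the genes in each of the 18 libraries, with the mean and SD of the 6 libraries of each group in black. MI 6 is the lowest MI library for Adgre1, Lyz2, Ms4a7 and Lgals3 and still lies above the 6 control libraries, the HXP libraries are widely spread in most panels, and for Cd163 and Timd4 the ranges of the 3 groups overlap.

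Fc receptors bind the constant part of antibodies and signal through small adaptors. All 6 genes of this role rose in MI hearts, by log2 fold changes of 0.97 (Clec7a) to 1.67 (Tyrobp). Fcgr1, the high-affinity receptor CD64 for IgG (ENSMUSG00000015947, GRCm38 chromosome 3, 96282909 to 96293969), stood at 0.608 to 5.79 FPKM (median 1.53) in HXP hearts, 1.24 to 4.32 FPKM (median 3.65) in MI hearts and 0.453 to 1.05 FPKM (median 0.730) in control hearts. Every MI library lay above every control library, and Fcgr1 rose by 1.16 log2 units (SE 0.29, limma adjusted p = 0.0146). Tyrobp encodes the adaptor DAP12, through which TREM2 and other receptors signal. It stood at 5.89 to 46.1 FPKM (median 19.4) in HXP hearts, 11.6 to 41.5 FPKM (median 32.5) in MI hearts and 5.56 to 10.4 FPKM (median 7.30) in control hearts, without overlap of MI and control, and rose by 1.67 log2 units (SE 0.43, limma adjusted p = 0.0147). The inhibitory receptor Fcgr2b rose by 1.42 log2 units (limma adjusted p = 0.0139), the activating receptor Fcgr3, a close paralog in the same locus, by 1.23 (limma adjusted p = 0.0194), and the shared gamma chain Fcer1g by 1.44 (limma adjusted p = 0.0173). Clec7a, the beta-glucan receptor Dectin-1, lost its call without MI 5 (adjusted p = 0.0793).

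Genes of the uptake of dying cells rose too. MERTK and AXL are receptor tyrosine kinases that bind phosphatidylserine on dying cells through the bridging protein GAS6. Mertk stood at 1.58 to 6.70 FPKM (median 3.10) in HXP hearts, 2.31 to 5.56 FPKM (median 4.18) in MI hearts and 1.49 to 2.83 FPKM (median 2.13) in control hearts. MI and control overlapped for it, since MI 6 (2.31 FPKM) lay below control 4 (2.83 FPKM), and it rose by 0.70 log2 units (SE 0.22, limma adjusted p = 0.0217), a call lost without MI 5 (adjusted p = 0.0556). Axl stood at 8.40 to 79.8 FPKM (median 24.8) in HXP hearts, 21.3 to 51.6 FPKM (median 38.9) in MI hearts and 11.3 to 15.5 FPKM (median 13.3) in control hearts and rose by 1.38 log2 units (SE 0.35, limma adjusted p = 0.0147). The ligand Gas6, the second most abundant of the 43, stood at 32.1 to 179 FPKM (median 79.3) in HXP hearts, 67.8 to 214 FPKM (median 127) in MI hearts and 44.2 to 50.7 FPKM (median 45.5) in control hearts and rose by 1.39 log2 units (SE 0.33, limma adjusted p = 0.0143). For Axl and Gas6 no MI library overlapped a control library. Both genes are also expressed by fibroblasts and vascular cells, and all 7 fibroblast markers rose in the same hearts (median log2 fold change 2.50), with summed levels of 86.1 to 2190 FPKM in HXP hearts, 371 to 2242 FPKM in MI hearts and 115 to 163 FPKM in control hearts and none of the 7 at 0 in any library. Their part in the rise of Axl and Gas6 was not tested.

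The markers of recruited monocytes held the highest fold change of the set. Lgals3, the beta-galactoside-binding lectin galectin-3 (ENSMUSG00000050335, GRCm38 chromosome 14, 47367751 to 47386160), stood at 0.224 to 34.5 FPKM (median 11) in HXP hearts, 2.55 to 39.2 FPKM (median 19.5) in MI hearts and 0.704 to 1.75 FPKM (median 1.30) in control hearts. Every MI library lay above every control library, with 2.55 FPKM in MI 6 and 39.2 FPKM in MI 5. Lgals3 averaged 14.4 ± 14.3 FPKM in HXP hearts, 19.3 ± 12.7 FPKM in MI hearts and 1.24 ± 0.362 FPKM in control hearts (SD, n = 6 each), and rose by 2.85 log2 units (SE 0.71, limma adjusted p = 0.0146). Fibroblasts express it as well. Plac8, abundant in Ly6C-high monocytes, stood at 0.196 to 5.54 FPKM (median 1.61) in HXP hearts, 0.882 to 5.74 FPKM (median 2.57) in MI hearts and 0.169 to 0.793 FPKM (median 0.359) in control hearts. MI 6 (0.882 FPKM) was close to the highest control (0.793 FPKM), and Plac8 rose by 1.35 log2 units (SE 0.41, limma adjusted p = 0.0209) and missed the threshold without MI 5 (adjusted p = 0.0551). Ly6c2 encodes the surface antigen Ly6C itself and shares sequence with Ly6c1, which endothelium expresses. Its level was 0.375 to 2.04 FPKM (median 1.25) in HXP hearts, 0.876 to 1.91 FPKM (median 1.17) in MI hearts and 0.462 to 0.841 FPKM (median 0.606) in control hearts. No MI library overlapped a control library, the differences were small, and Ly6c2 rose by 0.48 log2 units (SE 0.16, limma adjusted p = 0.0285), a call lost without MI 5 (adjusted p = 0.0541).

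Lipid-laden markers were below 1 FPKM in every control heart. Trem2, a receptor for lipids and apolipoproteins (ENSMUSG00000023992, GRCm38 chromosome 17, 48346401 to 48354147), stood at 0.145 to 4.77 FPKM (median 1.82) in HXP hearts, 0.630 to 4.68 FPKM (median 2.87) in MI hearts and 0.230 to 0.432 FPKM (median 0.352) in control hearts. Its 6 MI libraries lay above its 6 controls, and it rose by 1.37 log2 units (SE 0.36, limma adjusted p = 0.0149). Gpnmb, a transmembrane glycoprotein of lysosome-rich macrophages, stood at 0.0360 to 13.1 FPKM (median 3.13) in HXP hearts, 0.469 to 7.01 FPKM (median 3.39) in MI hearts and 0.114 to 0.901 FPKM (median 0.211) in control hearts. MI 6 (0.469 FPKM) lay within the control range for it, and Gpnmb rose by 1.62 log2 units (SE 0.52, limma adjusted p = 0.0244). Msr1, the class A scavenger receptor for modified lipoprotein, stood at 0.382 to 1.90 FPKM (median 0.657) in HXP hearts, 0.461 to 1.61 FPKM (median 1.40) in MI hearts and 0.323 to 0.538 FPKM (median 0.46) in control hearts and rose by 0.60 log2 units (SE 0.18, limma adjusted p = 0.0215). Gpnmb and Msr1 lost the call without MI 5 (adjusted p = 0.0623 and 0.0513), and Trem2 kept it (adjusted p = 0.0420). On the scale of log2(FPKM + 1) fold changes of genes this low are compressed, and with a pseudocount of 0.1 the log2 fold change of Trem2 was 2.48 and that of Gpnmb 2.93.

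The 4 genes shared by leukocytes all rose. Ptprc, the pan-leukocyte phosphatase CD45, stood at 0.422 to 2.77 FPKM (median 1.06) in HXP hearts, 0.632 to 2.60 FPKM (median 2.13) in MI hearts and 0.435 to 0.706 FPKM (median 0.528) in control hearts. Only MI 6 (0.632 FPKM) fell within the control range, and Ptprc rose by 0.86 log2 units (SE 0.23, limma adjusted p = 0.0155). The glycosylphosphatidylinositol-anchored protein Cd52 rose by 1.64 log2 units (limma adjusted p = 0.0173), the tetraspanin Cd53 by 1.36 (limma adjusted p = 0.0184) and the lysosomal protein Laptm5 by 1.61 (limma adjusted p = 0.0149), each also without MI 5.

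Of the 10 resident markers, 5 rose (Mrc1, Lyve1, Vsig4, Stab1 and Maf), a share of 50% beside 40.1% of all genes, 0 fell and 5 did not pass, and their median log2 fold change was 0.68. Mrc1, the mannose receptor CD206 (ENSMUSG00000026712, GRCm38 chromosome 2, 14229392 to 14332057), stood at 3.40 to 17.9 FPKM (median 7.30) in HXP hearts, 5.45 to 14.3 FPKM (median 11.9) in MI hearts and 4.33 to 5.78 FPKM (median 5.26) in control hearts. It rose by 0.90 log2 units (SE 0.28, limma adjusted p = 0.0227), and MI 6 (5.45 FPKM) lay within the control range, and the call was lost without MI 5 (adjusted p = 0.0526). Lyve1, a hyaluronan receptor of resident macrophages next to vessels and also of lymphatic endothelium, stood at 5.63 to 21 FPKM (median 11) in HXP hearts, 7.0 to 13.1 FPKM (median 10.9) in MI hearts and 3.56 to 8.61 FPKM (median 5.61) in control hearts. Control 4 (8.61 FPKM) reached above MI 5 (7.0 FPKM) and MI 6 (7.68 FPKM), and Lyve1 rose by 0.74 log2 units (SE 0.25, limma adjusted p = 0.0291), a call lost without any 1 of MI 1, MI 2, MI 3 and control 2, 3 and 5.

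Of the 4 lymphatic endothelial markers tested, 3 rose (Pdpn, Flt4 and Mmrn1) and Prox1, the transcription factor that sets lymphatic identity, fell by a log2 fold change of -0.36 (limma adjusted p = 0.0180). The summed level of 5 such markers was 11.2 to 49.4 FPKM in HXP hearts, 18.1 to 33.8 FPKM in MI hearts and 13.5 to 17.5 FPKM in control hearts. The part of lymphatic endothelium in the level of Lyve1 was not tested.

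Cd163, the scavenger receptor for haemoglobin bound to haptoglobin (ENSMUSG00000008845, GRCm38 chromosome 6, 124304656 to 124330527), stood at 2.85 to 6.31 FPKM (median 3.82) in HXP hearts, 1.91 to 9.09 FPKM (median 4.04) in MI hearts and 3.47 to 5.34 FPKM (median 3.77) in control hearts. MI libraries lay on both sides of the controls, with 9.09 FPKM in MI 2 and 1.91 FPKM in MI 5, and the MI minus control difference was 0.19 (SE 0.24, limma adjusted p = 0.513). Folr2, a folate receptor of resident macrophages, stood at 3.52 to 11.2 FPKM (median 5.85) in HXP hearts, 2.79 to 13.9 FPKM (median 7.59) in MI hearts and 4.66 to 6.86 FPKM (median 5.18) in control hearts. It too was lowest in MI 5, and in MI against control it differed by 0.31 log2 units (SE 0.27, limma adjusted p = 0.348). An antisense gene on the other strand overlaps 975 of its 1546 exon bases. Timd4, a phosphatidylserine receptor of long-lived resident macrophages, stood at 0.399 to 0.845 FPKM (median 0.673) in HXP hearts, 0.433 to 1.74 FPKM (median 1.07) in MI hearts and 0.538 to 1.03 FPKM (median 0.766) in control hearts. The groups overlapped over most of their range, and Timd4 had the lowest fold change of the 43, 0.17 (SE 0.14, limma adjusted p = 0.305). F13a1, the A subunit of coagulation factor XIII, had a log2 fold change of 0.24 (limma adjusted p = 0.350), and Clec10a, a C-type lectin for galactose, one of 0.69 (limma adjusted p = 0.0755).

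MI 5 was the lowest of the 6 MI libraries for Cd163, Folr2, Timd4, Lyve1 and F13a1 and the highest for 20 other genes of the set. Without it the log2 fold changes of Cd163, Folr2, Timd4 and F13a1 were 0.38, 0.52, 0.27 and 0.40, and none of the 4 passed (limma adjusted p = 0.0990 to 0.148). Under median-ratio scaling, which set the median over all genes at 0.0029 in place of 0.27, Cd163, Folr2 and F13a1 were at or just below 0 (-0.11, -0.0054 and -0.091). Among the resident markers that rose, Stab1, the scavenger receptor stabilin-1 that endothelium can also carry, had the highest log2 fold change, 1.07 (limma adjusted p = 0.0186), and was the 1 of the 5 called in all 18 fits that each left out 1 library. Maf, a transcription factor of resident macrophages, had 0.82 (limma adjusted p = 0.0336) and Vsig4, a receptor for complement C3 fragments, 0.67 (limma adjusted p = 0.0467). Maf lost its call in 9 of the 18 fits, MI 5 among them (adjusted p = 0.0726), and Vsig4 in 13. Vsig4 was above 2 FPKM in MI 1, MI 2 and MI 3 (3.37, 2.68 and 2.13 FPKM) and at 0.177 FPKM in MI 4, below all 6 controls.

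**Figure D3:**
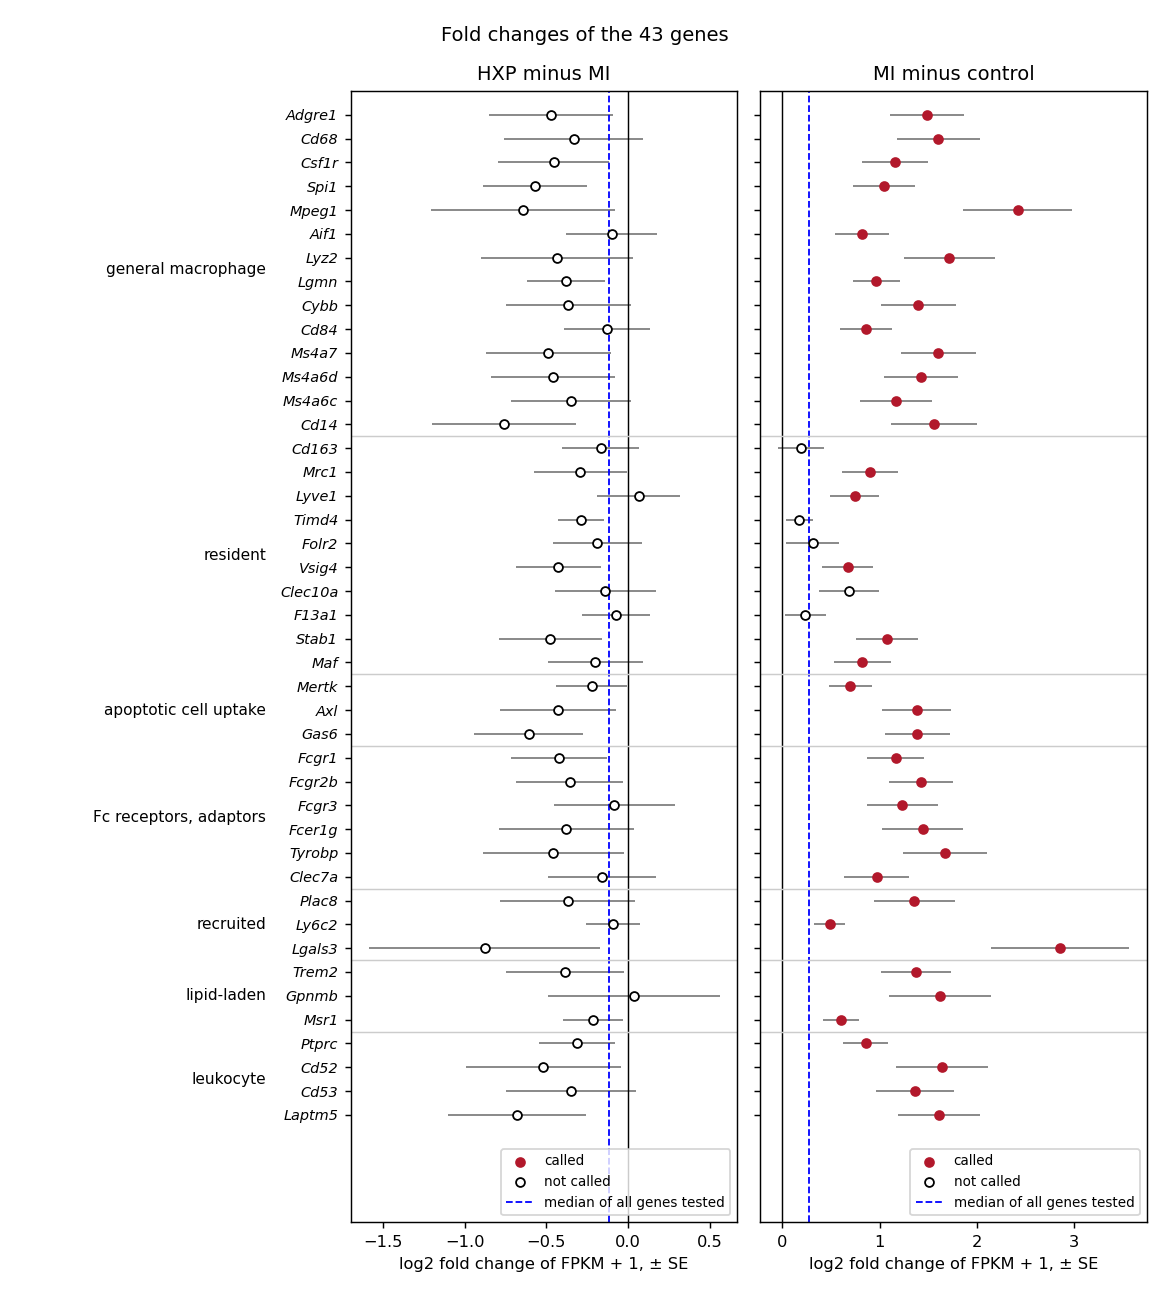
Log2 fold change of FPKM + 1 with its standard error for the 43 genes, HXP minus MI on the left and MI minus control on the right, with filled points for genes called at an adjusted p below 0.05. On the right 38 points are filled and the open ones are 5 resident markers. On the left no point is filled and 41 of 43 lie below 0, with the median of all genes (dashed) at -0.12.

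Whether resident markers differed beyond the change of a general macrophage gene was asked with the ratio of each gene to Csf1r in the same library, log2((gene + 1)/(Csf1r + 1)), by a two-sided exact permutation test over all regroupings of the 12 libraries, whose smallest possible p is 0.00216, adjusted over 126 ratios. In MI against control, 8 of the other 42 genes fell relative to Csf1r and 2 rose. Csf1r rose by more than most genes, and at the same raw exact p (at most 0.00649) 73.2% of the other 13709 genes were lower relative to it and 1.44% higher. All 10 resident markers had differences below 0, near the 95.3% of all genes, and 4 of the 13 general genes did. The count for general genes depended on the denominator, 8 of 13 being below 0 relative to Adgre1 and 10 of 13 relative to Cd68, while all 10 resident markers were below 0 relative to each. The share of all genes below 0 was computed relative to Csf1r alone. F13a1 fell by 0.92 (exact permutation p = 0.00216, adjusted p = 0.0273), Timd4 by 0.98 (exact permutation p = 0.00216, adjusted p = 0.0273) and Cd163 by 0.97 (exact permutation p = 0.00433, adjusted p = 0.0321), differences on the log2 scale. Mrc1 fell by 0.26 (exact permutation p = 0.00216, adjusted p = 0.0273), the smallest difference that passed, with all 6 MI libraries below all 6 controls. Lgals3 rose by 1.69 (exact permutation p = 0.00216, adjusted p = 0.0273) and Mpeg1 by 1.26 (exact permutation p = 0.00433, adjusted p = 0.0321). Folr2, at -0.85 (exact permutation p = 0.0152, adjusted p = 0.0734), and Lyve1, at -0.42 (exact permutation p = 0.0866, adjusted p = 0.198), did not pass.

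The remaining 4 genes that fell relative to Csf1r were Mertk (-0.46), Ly6c2 (-0.68), Msr1 (-0.56) and Ptprc (-0.30). Most of these lie near 1 FPKM, where the added 1 compresses a rise. With 0.1 in its place none of the 4 passed: Mertk stood at -0.33, Ly6c2 at -0.31, Msr1 at -0.021 and Ptprc, now above 0, at 0.29 (exact permutation adjusted p = 0.0808 to 0.900). All 10 resident markers were below 0 on that scale too, and F13a1, Cd163 and Mrc1 passed, while Timd4, at -0.93, missed the threshold (exact permutation adjusted p = 0.0734). Trem2, above 0 on both scales, went from 0.21 to 1.25 and passed with 0.1 added (exact permutation adjusted p = 0.0454). Ms4a7, Cybb, Fcgr1, Fcgr2b, Cd52 and Laptm5 likewise passed as higher with 0.1 and not with 1 added. The share of all genes was not computed with 0.1 added, so results on that scale have no background. Without MI 5, F13a1, Timd4, Cd163 and Mrc1 passed as well (differences -0.69, -0.82, -0.71 and -0.22). With Adgre1 as the denominator 11 genes passed as lower, 5 resident and 2 general ones (Aif1 and Cd84) among them, and with Cd68 15 did, 7 resident and 3 general ones (Spi1, Aif1 and Cd84) among them. Mpeg1 and Lgals3 passed as higher with each. Adgre1 and Cd68 also rose by more than most genes, and the share of all genes lower relative to them was not computed. Without any 1 of control 2, 4 and 6, 0 of the 42 passed.

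**Figure D4:**
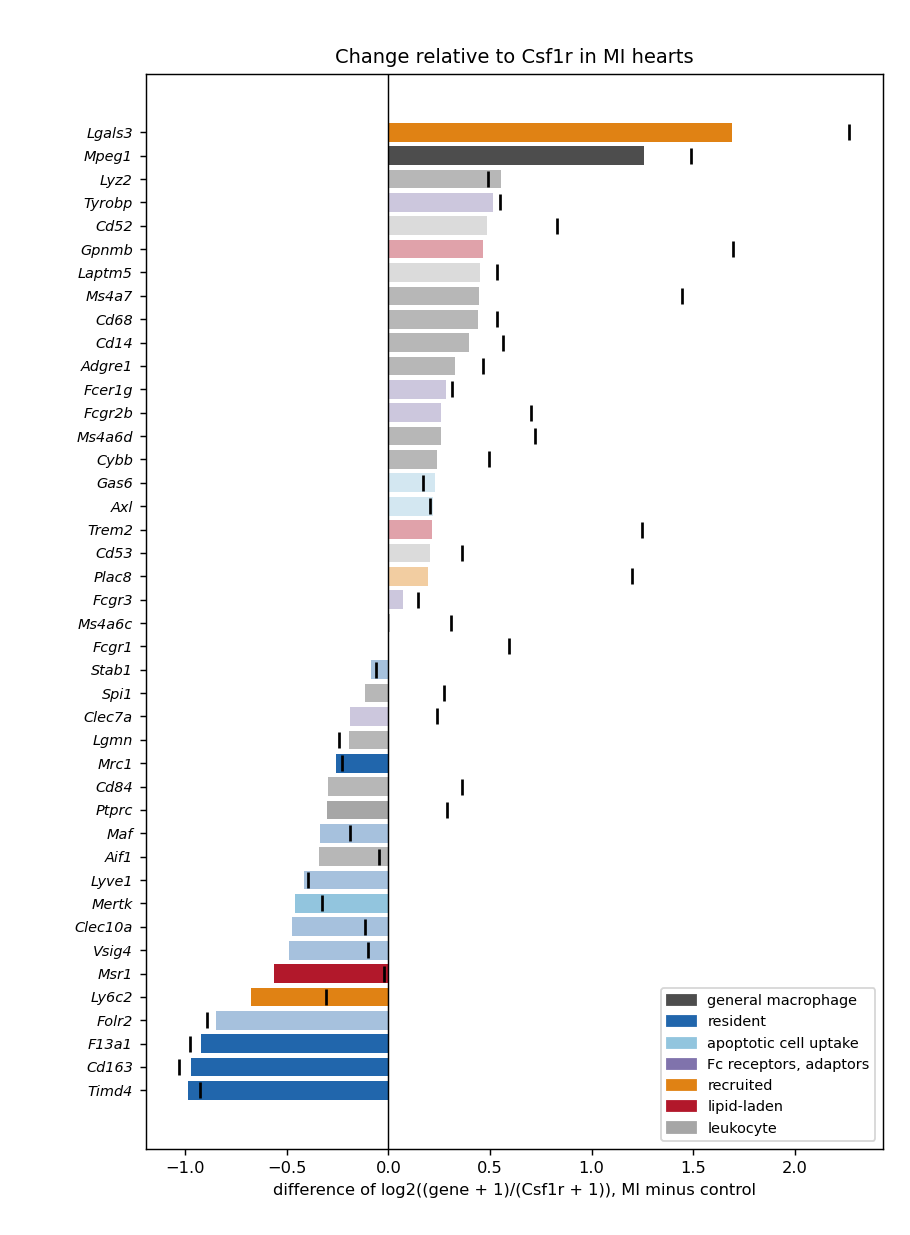
Difference between MI and control hearts in log2((gene + 1)/(Csf1r + 1)) for 42 genes, as bars in order of size and coloured by role, with solid bars for the 10 genes that passed the exact permutation test at an adjusted p below 0.05. Black ticks give the same difference with 0.1 added in place of 1. Lgals3 (1.69) and Mpeg1 (1.26) stand at the top, and all 10 resident markers lie below 0, as do 95.3% of all genes, with Timd4 (-0.98) at the foot.

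Genes outside the set that serve the same cells were counted from 6 further lists, in MI against control, where 40.1% of all genes rose. Of 5 growth factors and receptors tested, 4 rose: Csf1 (log2 fold change 0.62, limma adjusted p = 0.0154) and Il34 (0.84), the 2 ligands of CSF1R, and Csf2ra (log2 fold change 0.90, limma adjusted p = 0.0476) and Csf3r, receptor chains for GM-CSF and G-CSF. Of 8 transcription factors tested, 5 rose, from Ikzf1 (log2 fold change 0.69, limma adjusted p = 0.0154) to Cebpa (log2 fold change 1.33, limma adjusted p = 0.0248), a factor of myeloid commitment. Of 11 further recruited-cell genes tested 7 rose, led by the matrix protein gene Thbs1 (log2 fold change 4.25, limma adjusted p = 0.0127), which other cells of the infarct also make, with the integrin chain Itgal lowest (log2 fold change 0.38, limma adjusted p = 0.0459). The chemokine receptor Ccr2, by which monocytes leave the marrow, rose by 1.09 log2 units (limma adjusted p = 0.0164).

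Among 11 further resident-cell genes tested 7 rose, the same count as among the recruited-cell genes, from Cbr2 (log2 fold change 0.55, limma adjusted p = 0.0485) to the chemokine Ccl8 (log2 fold change 2.15, limma adjusted p = 0.0238). In the uptake of dying cells 7 of 8 rose, from the engulfment adaptor Elmo1 (log2 fold change 0.58, limma adjusted p = 0.0219) to Anxa1, a phosphatidylserine-binding protein (log2 fold change 2.13, limma adjusted p = 0.0139). Of 15 further lipid genes 10 rose, led by the osteopontin gene Spp1 (log2 fold change 2.99, limma adjusted p = 0.0142), and 1 fell, the fatty acid transporter Cd36 (log2 fold change -0.44, limma adjusted p = 0.0195), which heart muscle and capillaries carry at 159.6 to 319 FPKM. Without MI 5 the called genes numbered 2 of 5 growth factors and receptors, 2 of 8 transcription factors, 5 of 11 recruited, 3 of 11 resident, 5 of 8 uptake and 6 of 15 lipid genes, beside 18.4% of all genes called higher in that fit.

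Neutrophil markers summed to 1.35 to 17.9 FPKM in HXP hearts, 2.86 to 16.3 FPKM in MI hearts and 0.748 to 26.2 FPKM in control hearts, and of the 5 tested 1 rose, Csf3r, which monocytes share. Alveolar macrophage markers, 11 in all with Mrc1 among them, summed to 13 to 31.5 FPKM in HXP hearts, 17.3 to 299.9 FPKM in MI hearts and 12.8 to 18.8 FPKM in control hearts, the highest being MI 5. Of 6 tested 1 rose: Marco, a scavenger receptor, was listed at 0 to 1.40 FPKM in HXP hearts, at 0.171 to 3.71 FPKM in MI hearts and at 0 in all 6 control hearts, and was higher in MI 1, MI 2 and MI 3 than in MI 5. Their part in the levels of the 43 genes was not tested.

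**Figure D5:**
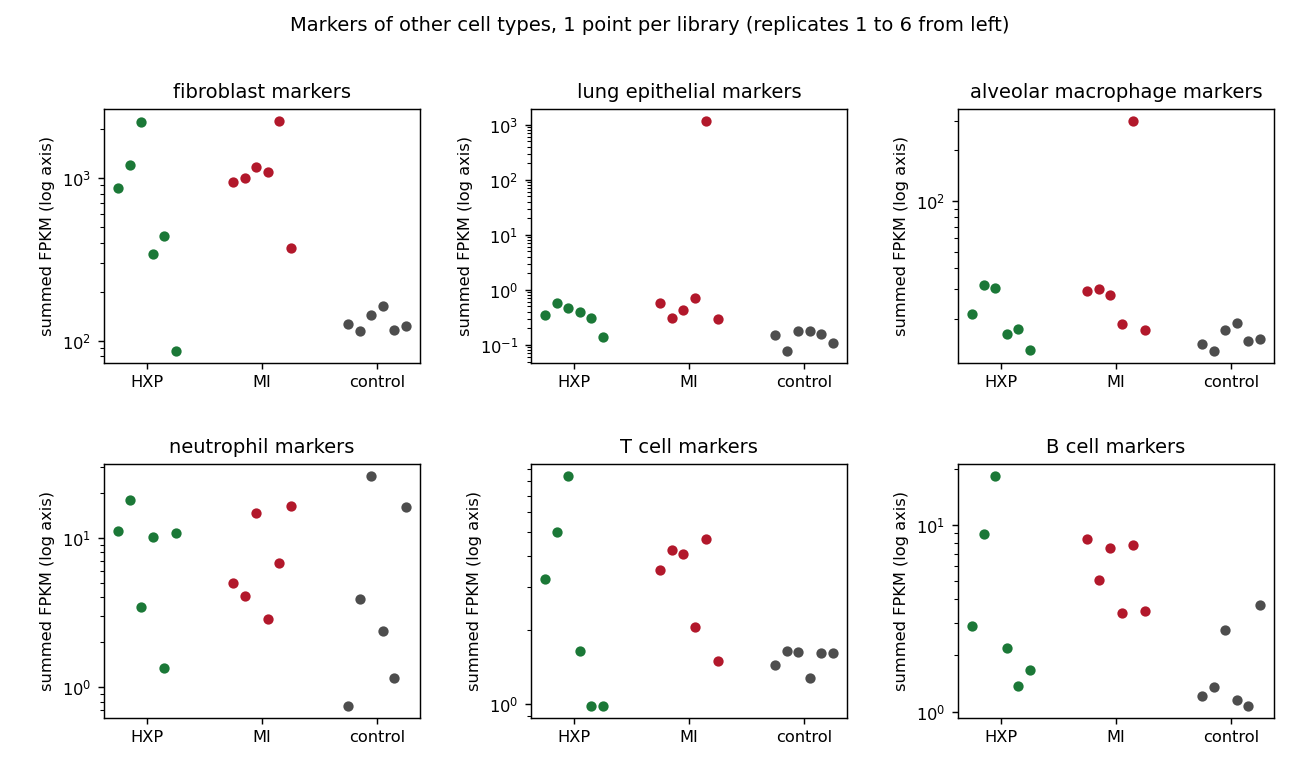
Summed FPKM of the markers of 6 other cell types in each of the 18 libraries, on log axes. Lung epithelial and alveolar macrophage markers are highest in MI 5 (1182 and 299.9 FPKM), fibroblast markers are lowest in HXP 6 (86.1 FPKM) and the 6 controls, and neutrophil markers overlap between the 3 groups.

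HXP was next set against MI, the comparison that the title of the series names. No macrophage or monocyte gene of the 43 passed the test between HXP and MI hearts (0 of 43 called by limma, beside 0.0% of 13710 genes called higher and 0.0% called lower). Fold changes were below 0 for 41 of the 43, against 75.4% of all genes, with a median of -0.37 beside -0.12 over all genes. At an unadjusted p below 0.05 stood 0 of the 43 and 13.8% of all genes. Without MI 5, 0 of the 43 passed and 40 were below 0, with a median of -0.27 beside -0.0885 over all genes. Without HXP 6, 33 were below 0 with a median of -0.12, beside -0.055 over all genes. In the last run alone, with 2 HXP and 5 MI libraries, 24 were below 0. Their median there was -0.066, close to the -0.054 over all genes. The share of all genes below 0 was not computed in these fits.

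Lgals3 had the lowest fold change of HXP against MI, -0.88 (SE 0.71, limma adjusted p = 0.539), followed by Cd14 at -0.76 (SE 0.44, limma adjusted p = 0.423). For Lgals3 the HXP libraries included 34.5 FPKM in HXP 3 and 0.224 FPKM in HXP 6, on either side of the control range. Timd4 had the smallest p of the set, with a log2 difference of -0.29 (SE 0.14, limma adjusted p = 0.368) and an unadjusted limma p of 0.0563. Log2 fold changes were likewise below 0 for Gas6, at -0.61 (limma adjusted p = 0.406), Laptm5 at -0.68 (limma adjusted p = 0.444) and Spi1 at -0.57 (limma adjusted p = 0.409). Adgre1 had a log2 fold change of -0.47 (limma adjusted p = 0.536) and Trem2 one of -0.39 (limma adjusted p = 0.588). The 2 genes above 0 were Lyve1 (log2 fold change 0.064, limma adjusted p = 0.907) and Gpnmb (log2 fold change 0.036, limma adjusted p = 0.975), and each lay below 0 without single libraries, Lyve1 without HXP 2, MI 5 or MI 6 and Gpnmb without HXP 1, HXP 2, HXP 3 or MI 6. With an SE of 0.14 to 0.71 on the log2 scale, differences of these sizes could not be told from 0 with 6 libraries a group.

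Relative to Csf1r no gene passed between HXP and MI (0 of 42 at an adjusted p below 0.05, 1 of 42, Fcgr3, at an unadjusted exact permutation p below 0.05, beside 1.26% of all genes). The difference for Fcgr3 was 0.37 (exact permutation p = 0.0346, adjusted p = 0.115). Without MI 5, 1 gene passed, Clec7a, with a difference of 0.40 (exact permutation adjusted p = 0.0341). Likewise 1 gene passed without HXP 4, and 1 without MI 3. No share of all genes was computed without single libraries. Of the 10 resident markers 9 had differences above 0, as had 89.0% of all genes. Lyve1 stood at 0.52 (exact permutation p = 0.134, adjusted p = 0.260) and Folr2 at 0.27 (exact permutation p = 0.537, adjusted p = 0.669). With 0.1 added in place of 1, 7 of the 10 were above 0, and the share of all genes was not computed on that scale.

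HXP libraries were spread over the ranges of both other groups. HXP 3 lay above the whole MI range in 29 of the 43 genes and HXP 2 in 17, HXP 1 lay within it in 42, HXP 4 and HXP 5 lay below it in 11 and 12, and HXP 6 in 38. Of all genes, 39.5% lay above the MI range in HXP 3 and 16.9% in HXP 2, 71.9% lay within it in HXP 1, and 48.5%, 44.8% and 65.4% lay below it in HXP 4, HXP 5 and HXP 6. Against the controls, HXP 1 to HXP 5 lay above all 6 in 38, 42, 41, 30 and 31 genes, beside 59.8%, 64.5%, 68.1%, 25.1% and 29.9% of all genes. HXP 6 lay above all controls in 0 of the 43 and below all of them in 30, beside 40.8% of all genes below all controls in that library. Csf1r, for example, had 38.3 FPKM in HXP 3 and 5.18 FPKM in HXP 6, against a lowest control of 8.11 FPKM. HXP 6 also had the lowest fibroblast marker sum of all 18 libraries (86.1 FPKM) and the highest share of FPKM in mitochondrial genes (53.8%, against 34.0% to 52.1% in the others), and HXP 3 the highest fibroblast sum of its group (2190 FPKM). The part of either in the macrophage values was not tested. In MI, MI 6 was lowest in 37 of the 43 and lay above all controls in 25, beside 43.5% of all genes.

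HXP was finally set against control. Fold changes were above 0 for 42 of the 43 genes, against 72.8% of all genes, with a median log2 fold change of 0.81 beside 0.16 over all genes, and none passed the test (0 of 43, beside 0.0948% of all genes called higher and 0.219% called lower). At an unadjusted p below 0.05 stood 32 of the 43, against 33.1% of all genes. In 0 of the 43 did every HXP library lie above every control library, beside 1.13% of all genes. This count rested on one library: without HXP 6, 35 of the 43 were called, beside 28.1% of all genes higher. Quantile normalization called 4 (Mpeg1, Fcgr2b, Fcgr3 and Gpnmb, beside 3.93% of all genes higher) and median-ratio scaling 3 (Mpeg1, Fcgr2b and Fcgr3, beside 3.82%). This comparison shares its control libraries with that of MI and its HXP libraries with that of HXP against MI.

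Lgals3 again had the highest log2 fold change, 1.97 (SE 0.71, limma adjusted p = 0.101), and Fcgr2b, at 1.06 (SE 0.33, limma adjusted p = 0.0893), had the smallest p. The log2 fold change of Mpeg1 was 1.77 (limma adjusted p = 0.0904), that of Gpnmb 1.66 (limma adjusted p = 0.0902), of Lyz2 1.28 (limma adjusted p = 0.102) and of Cd68 1.27 (limma adjusted p = 0.0963). Without HXP 6 the limma adjusted p of these 6 genes was 0.0147 to 0.0197. Timd4 was the one gene below 0, at -0.11 (limma adjusted p = 0.570), and Cd163 had a log2 fold change of 0.022 (limma adjusted p = 0.954), with Folr2 at 0.12 (limma adjusted p = 0.758) and Lyve1 at 0.81 (limma adjusted p = 0.0901). Of the 8 genes not called without HXP 6, 6 were resident (Cd163, Timd4, Folr2, Vsig4, Clec10a and F13a1), and the other two were Spi1 and Msr1.

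Relative to Csf1r, 8 of 42 genes rose in HXP against control and 0 fell, while at the same raw exact p 1.01% of all genes were higher and 6.05% lower. They were Mpeg1, by 1.07 (exact permutation p = 0.00433, adjusted p = 0.0321), Gpnmb, by 0.96 (exact permutation p = 0.00649, adjusted p = 0.0454), Lyz2 (0.58), Cd68 (0.56), Ms4a7 (0.41), Fcgr2b (0.36), Cybb (0.33) and Adgre1 (0.31). With 0.1 added in place of 1, Gpnmb no longer passed (exact permutation adjusted p = 0.0963), and the others named here still did. The share of all genes was not computed on that scale. For Cybb, Ms4a7 and Fcgr2b every HXP library lay above every control library in this ratio, HXP 6 included, beside 0.693% of all genes in the same ratio. Of the 10 resident markers 9 had differences below 0, as had 94.2% of all genes, and none passed, with -0.58 (exact permutation p = 0.0541, adjusted p = 0.155) for Folr2. The calls turned with the denominator. Relative to Adgre1 no gene rose and 5 fell (Csf1r, Spi1, Mrc1, Folr2 and Stab1), and relative to Cd68 none rose and 12 fell, 7 of them resident (Cd163, Mrc1, Folr2, Clec10a, F13a1, Stab1 and Maf). Relative to Cd68 the differences of Adgre1, Cybb, Ms4a7 and Fcgr2b were below 0 and did not pass. The share of all genes that fell relative to Adgre1 or Cd68 was not computed, so these counts have no background. Without any 1 of control 2, 4 and 6 none passed.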

How the data were processed

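RNA of mouse hearts was read in 18 libraries, with 1 deposited table per library. The authors deposited 1 FPKM value per Ensembl gene, a unit no header names and which was read from the numbers: each times its merged exon length (GENCODE M21) fell within 0.1 of a whole read for 97.8% to 98.3% of those checked. The build GRCm38 and limma are named per the submitters' processing notes, while the sources used here do not name the aligner, counting tool or annotation. Of 34150 IDs 34097 matched GENCODE M21 and 53 did not.

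All genes averaging 0.5 FPKM or more were fitted as log2(FPKM + 1) in one 3-group limma model (limma 3.58.1, R 4.3.3, trend on, robust prior off, two-sided), and p-values were adjusted by Benjamini-Hochberg over all 13710 genes. A fold change is a fitted difference of log2(FPKM + 1), compressed for low genes. Ratios to Csf1r were tested by exact permutation (Python 3.11.15, numpy 2.4.6). Both tests were checked on simulated data. The alternatives were the pseudocount, the filter, quantile, median-ratio and non-mitochondrial scaling, a robust prior, fits of only the groups compared, a replicate block, the library run as a covariate, the last run alone, another denominator and leaving out each library. Averaging MI 1 and MI 2, the most alike pair, and the ratio to Csf1r over all 13709 other genes, given as a background, were added after seeing the data. The recovered reads of MI 1 and MI 2 differed by 6.85 times the counting expectation (median chi-square over genes), beyond sampling noise, and they were kept as 2 samples. The next lowest value within a group was 14.0 (control 3 and control 5), and whether MI 1 and MI 2 are independent is not stated. With the pair averaged, 33 of 43 genes rose in MI against control, beside 28.8% of all genes. The ratio test was not run with the pair averaged.

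The 43 genes, their roles and the 20 further lists were chosen with earlier results of these data known. Named genes followed a rule: 22 genes that stand for their role, the highest and lowest fold change and the smallest p of each comparison, genes with no call, and for further lists the called genes of highest and lowest fold change. Ccr2, Prox1, Marco and Chil3, and the other genes of each role, were named after their values were seen. Promoter sequences are from RefSeq (32 of 43 genes matched), and none is shown for genes on chromosome 18. Figures were drawn with matplotlib 3.10.9.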

Additional observations from a re-analysis of the deposited data

Results flagged for a closer look

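Among the 43 genes in 3 groups of 6 libraries (129 checks), 1 value stood apart from the rest of its group by Dixon's criterion. Cd163 in control 4 was at 5.34 FPKM, against 3.47 to 3.91 FPKM in the other 5 control hearts, a gap of 0.734 of the group's whole range on the scale of log2(FPKM + 1), above the critical value for 6 samples. Chance flags about 1 in 20 groups.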

How the results depend on the processing

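In MI against control 38 of 43 genes were called, beside 40.1% of all genes higher. With a mean of at least 5 FPKM 20 of the 22 genes still tested were called, beside 35.9% of all genes. The last run alone called 0 (0.54% of all genes), no filter 29 (11.4%), quantile normalization 30 (13.2%) and median-ratio scaling 34 (17.5%). The replicate number as a block called 39 (37.9% of all genes higher). Leaving out single libraries gave 26 (without MI 5, beside 18.4% of all genes higher) to 39 (without MI 6, beside 44.5%). In HXP against MI every alternative called 0, the replicate block included. In HXP against control, quantile normalization called 4 (3.93% of all genes higher) and median-ratio scaling 3 (3.82%). Single libraries left out gave 0 to 35 (35 without HXP 6, beside 28.1%), and the replicate block 0. Relative to Csf1r 10 genes passed in MI against control (8 lower, 2 higher), 17 with Cd68 as the denominator (15 lower, 2 higher) and 0 to 22 without single libraries. In HXP against MI 0 to 1 passed without single libraries, and in HXP against control 8 passed, all higher, against 5 with Adgre1 and 12 with Cd68 as the denominator, all lower, and 0 to 15 without single libraries. For these ratios no share of all genes was computed with Adgre1 or Cd68 as the denominator or without single libraries. Whether the replicate numbers pair the samples is not stated, and correlations of the values cannot settle it. The 18 correlations of same-numbered libraries ran from -0.31 to 0.63, 5 were over 0.1, and 3 of 18 libraries correlated best with their own number.

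Signs turned for fold changes that had not passed and for 5 ratios that had. In MI against control Cd163 stood at -0.155 with quantile normalization and -0.106 with median-ratio scaling, Folr2 at -0.0363 and -0.00543, F13a1 at -0.0942 and -0.0906, and Timd4 at -0.139 with quantile normalization. In HXP against MI Lyz2 stood at 0.237 in the last run alone and Gpnmb at -0.276 with a pseudocount of 0.1. Without single libraries Gpnmb ran from -0.312 to 0.441, Lyve1 from -0.12 to 0.226 and Cd163 from -0.358 to 0.000679. In HXP against control Cd163 stood at -0.163 with quantile normalization, -0.151 with median-ratio scaling, -0.00863 with the run as a covariate and -0.088 to 0.0969 without single libraries. Ratios that had passed turned for Ptprc in MI against control (0.287 with a pseudocount of 0.1) and, with Cd68 as the denominator in HXP against control, for Adgre1 (-0.251), Cybb (-0.236), Ms4a7 (-0.151) and Fcgr2b (-0.205). Fewer libraries or genes account by construction for part of the lost calls, and the other causes were not tested. The fewest reads behind any value were 18, and the effect of depth on the calls was not tested.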

Other observations

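Other cells of blood and vessel were read in the same hearts, in MI against control, where 40.1% of all genes rose. All 3 B cell markers tested rose: Cd79b by 0.95 (limma adjusted p = 0.0407), Cd79a by 0.93 (limma adjusted p = 0.0458) and the kinase gene Blk by 0.39 (limma adjusted p = 0.0255), and none of the 3 passed without MI 5. Their summed level with 3 lower markers was 1.37 to 18.4 FPKM in HXP hearts, 3.36 to 8.40 FPKM in MI hearts and 1.07 to 3.73 FPKM in control hearts. Of 4 dendritic cell markers tested 2 rose, Itgax (log2 fold change 1.01, limma adjusted p = 0.0455), which macrophages also carry, and Cd209a (log2 fold change 0.88, limma adjusted p = 0.0196), while Clec9a, of cross-presenting dendritic cells, stood at -0.0068 (limma adjusted p = 0.968). None of 5 mast cell, 2 NK cell and 1 T cell markers tested passed in limma, as none of 5 erythrocyte markers did. T cell markers summed to 0.984 to 8.44 FPKM in HXP hearts, 1.5 to 4.67 FPKM in MI hearts and 1.27 to 1.65 FPKM in control hearts. Of 7 blood endothelial markers 1 rose, Pecam1 (log2 fold change 0.44, limma adjusted p = 0.0340), which leukocytes share, and of 8 heart muscle markers 2 fell, Pln (log2 fold change -0.54, limma adjusted p = 0.0254) and Tnni3 (log2 fold change -0.54, limma adjusted p = 0.0324).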
